A study of Mus musculus with 10 samples.

Results

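The 31 genes described here are established targets of the tumor suppressor p53, followed in mouse mesenchymal stem cells labelled as deficient for Rb and p53. They were taken by name from the gene symbols printed on the array, with the brightest probe standing for a gene that had several. All 31 were on the array, among 34780 named genes, and 30 of them were tested. The exception was Rrm2b, a ribonucleotide reductase subunit, whose 2 probes were not well above background on any array. Of the 30, 28 were well above background on all 10 arrays. Rprm missed that mark on 1 of 2 arrays of Rb/p53-null marrow cells, and Eda2r on 1 of 2 arrays of the tumor line.

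RNA from 10 cultures of FVB mice was hybridised to single-colour Agilent arrays, 1 array per culture, in 5 groups of 2. The tumor line was grown from a tumor that formed after Rb-/-p53-/- bone marrow cells (BM-MSCs) were injected under the skin of NSG mice, and it stands for 1 such line. Its parent type, the Rb/p53-null BM-MSC, and the Rb/p53-null fat-derived cell (ASC) had been primed towards bone for 10 days and then given an adenovirus in which the CMV promoter drives Cre recombinase. Wild-type (WT) BM-MSCs and WT ASCs carried neither deletion. The growth protocol describes cells with loxP-flanked Rb and p53 alleles recombined in culture, whereas the source labels speak of Rb-/-p53-/- mice. Every null culture and the tumor line therefore differed from WT cells in Rb, priming and adenovirus as well as in p53, and these cannot be told apart here. Duplicates were separate cultures. The labels do not say whether they came from separate animals.

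p53 is a transcription factor that is held at low levels by the ubiquitin ligase Mdm2 and builds up when DNA is damaged or growth signals are excessive. It binds a response element made of paired copies of a short motif and switches on genes that halt the cell cycle, repair DNA, limit growth signalling or start cell death, and it switches on Mdm2 itself. Cells grown in culture usually carry some basal p53 activity, and deletion of p53 together with Rb is a known route to sarcoma in mice.

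The response element that joins these genes can be read in some of their promoters. RefSeq promoters on GRCm38.p6, from 250 bases before to 50 bases after a gene's start, were matched by symbol for 23 of the 31 genes (32 promoters). Each was searched on both strands for the p53 response element in its full form of 20 letters without a spacer, with the 4 invariant C and G letters kept. The 4 genes with a match of at most 3 letters off are printed because they stand on both sides of the results below: Ccng1, Bbc3 and Aen fell in both null groups and Sesn1 did not. The limit of 3 was chosen after the matches were seen. The windows are chr11:40755442-40755501 (minus strand) for Ccng1, chr7:16309466-16309525 (plus) for Bbc3, chr10:41887246-41887305 (plus) for Sesn1 and chr7:78895917-78895976 (plus) for Aen. Capitals mark the matched letters, written 5′ to 3′ on the gene's own strand.
Ccng1: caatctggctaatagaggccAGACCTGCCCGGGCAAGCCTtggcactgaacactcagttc
Bbc3: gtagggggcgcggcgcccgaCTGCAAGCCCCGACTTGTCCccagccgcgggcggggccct
Sesn1: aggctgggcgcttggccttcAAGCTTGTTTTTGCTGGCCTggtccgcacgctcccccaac
Aen: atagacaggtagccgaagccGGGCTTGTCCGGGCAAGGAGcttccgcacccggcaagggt

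The Ccng1 match was 1 letter off and began at position -195 from the gene's start. The matches in Bbc3 (-97), Sesn1 (-173) and Aen (-121) were each 3 letters off. At most 1 letter off was found in 0.067% of all 32851 promoters, and at most 3 letters off in 1.38% of them, against 15.6% of the members' promoters. Of the 5 member promoters counted there, 2 are overlapping windows of Aen. No match says only that these letters are not in this window.

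Levels below are log2 of the processed spot signal minus the log2 of the array's 75th percentile, so a level of 0 is the 75th percentile of that array. A change is the difference between 2 group means of such levels, with its standard error (SE) from a limma fit over all 10 arrays, and it passed the test at an adjusted p under 0.05 over 22622 genes. Levels of different probes are not compared. Across the arrays 53.3% to 58.4% of spots were well above background and no spot was saturated. The 8 arrays of null and WT cells lay on 1 slide, and the 2 tumor line arrays on another, so slide and tumor line cannot be told apart. Within the members, duplicates differed by a median of 0.0567 to 0.0919 in each group, with the widest gaps for Rprm in null BM-MSCs (0.764) and Eda2r in the tumor line (0.684).

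Trp53, which encodes p53, checks the labels first. Its level was -7.56 and -7.59 in the tumor line, where its probe was not well above background. It was -0.89 and -1.11 in null BM-MSCs, against 0.83 and 0.71 in WT BM-MSCs. It was -4.49 and -5.12 in null ASCs, with 1 of 2 arrays well above background, against 1.11 and 1.02 in WT ASCs. The groups thus differed in how much Trp53 signal remained. It was at least 76.0-fold lower in the tumor line than in WT BM-MSCs (the lowest signal called well above background standing in for the dim probe), 29.3% of WT in null BM-MSCs and 1.71% of WT in null ASCs. Rb1 kept 6.77% of the WT BM-MSC signal in the tumor line, 40.2% in null BM-MSCs and 10.5% of the WT ASC signal in null ASCs. In bulk RNA, fewer cells with the transcript and less transcript per cell cannot be told apart. The labels do not say which exons the loxP sites flank, and whether the Trp53 and Rb1 probes lie within the deleted segments was not determined.

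Most p53 targets were lower in each of the p53-deficient groups. In the tumor line, 20 of the 30 tested members fell and 6 rose against WT BM-MSCs, while 34.8% of all genes fell and 32.9% rose (67.8% in either direction). In null BM-MSCs, 21 fell and 4 rose against WT BM-MSCs, beside 20.2% and 19.3% of all genes (39.5% in either direction). In null ASCs, 22 fell and 3 rose against WT ASCs, beside 21.2% and 20.3% of all genes (41.5% in either direction). The median change of the members was -1.01 in the tumor line, -0.74 in null BM-MSCs and -1.18 in null ASCs, where the medians over all genes were -0.06, 0.01 and -0.03. The fall was at least 2-fold for 16, 10 and 17 members in the same order of groups. The arrays of the compared groups did not overlap for 28 of 30 members in each of these comparisons, which also held for 84.1%, 71.2% and 70% of all genes. The tumor line and null BM-MSCs were set against the same 2 WT BM-MSC arrays, so these comparisons are not independent.

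**Figure D1:**
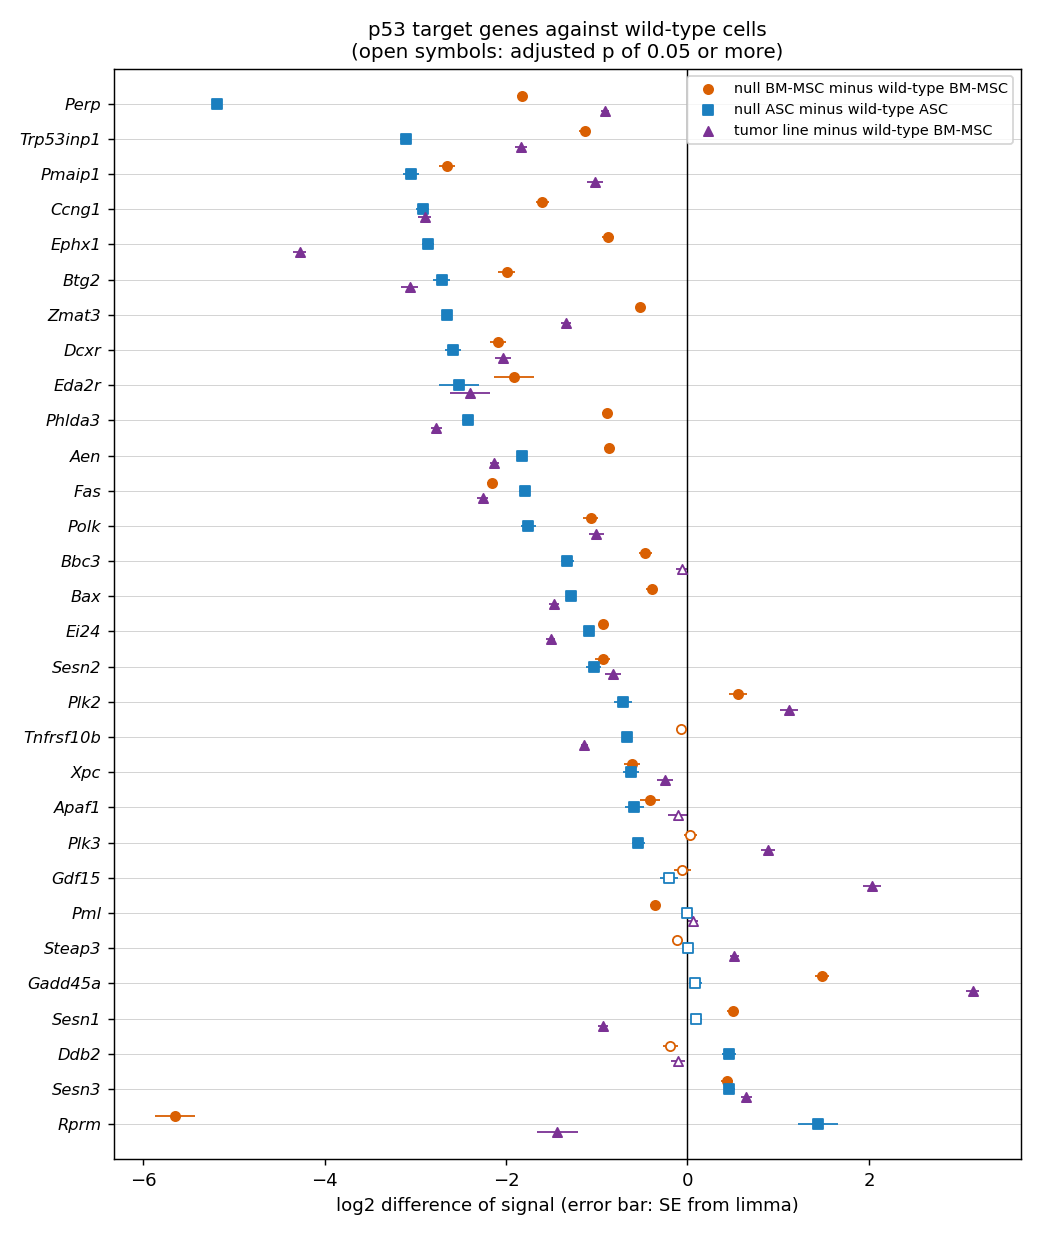
Change of each of the 30 tested p53 targets (rows) on the log2 scale (horizontal axis) in null BM-MSCs and the tumor line against WT BM-MSCs and in null ASCs against WT ASCs. Bars are SEs, filled symbols passed the test; most symbols lie left of 0, down to -5.65 for Rprm in null BM-MSCs and -5.18 for Perp in null ASCs, while Gadd45a lies at 3.14 in the tumor line.

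A core of 17 members fell in all 3 comparisons with WT: Aen, Bax, Btg2, Ccng1, Dcxr, Eda2r, Ei24, Ephx1, Fas, Perp, Phlda3, Pmaip1, Polk, Sesn2, Trp53inp1, Xpc and Zmat3. Over all genes, 5.37% did so. The place of Xpc rests on a tumor line call that several alternatives did not keep, as given below. The other 13 tested members followed 11 other patterns, of which Sesn3 was the sole gene that rose in all 3.

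Among the cell death genes, the death receptor Fas fell in all 3 p53-deficient groups. Its level was 0.27 and 0.32 in the tumor line and 0.39 and 0.41 in null BM-MSCs, against 2.55 and 2.56 in WT BM-MSCs. In ASCs it was 1.42 and 1.56 in null cells, against 3.30 and 3.27 in WT cells. The changes were -2.26, -2.15 and -1.80, each with an SE of 0.06, and no array of a WT group overlapped one of its null group. Eda2r, the receptor of ectodysplasin A2, fell, with changes of -2.40, -1.92 and -2.52 with an SE of 0.22, and its level was below 0 on every array. Tnfrsf10b, a receptor of the death ligand TRAIL, behaved differently. It was at 3.04 and 3.03 in the tumor line and at 4.10 and 4.10 in null BM-MSCs, against 4.20 and 4.15 in WT BM-MSCs, so its change of -1.14 ± 0.04 in the tumor line passed the test and the change of -0.07 ± 0.04 in null BM-MSCs did not (adjusted p = 0.227). It fell by 0.67 ± 0.04 in null ASCs.

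The BH3-only proteins, which release the brake on mitochondrial cell death, split in the tumor line. Pmaip1 (Noxa) was at -0.15 and -0.21 in the tumor line and at -1.87 and -1.76 in null BM-MSCs, against 0.94 and 0.74 in WT BM-MSCs. In null ASCs it was at -0.57 and -0.42, against 2.53 and 2.58 in WT ASCs. It was thus lower in every p53-deficient array than in any WT array, with changes of -1.02, -2.65 and -3.05 (SE 0.09), and it was 1.63 ± 0.09 higher in the tumor line than in null BM-MSCs. Bbc3 (Puma) was at 2.54 on both tumor line arrays and at 2.19 and 2.08 in null BM-MSCs, against 2.61 and 2.59 in WT BM-MSCs. In null ASCs it was at 1.77 and 1.66, against 3.12 and 2.97 in WT ASCs. Bbc3 fell by 0.46 ± 0.07 in null BM-MSCs and by 1.33 ± 0.07 in null ASCs, while in the tumor line its change of -0.06 ± 0.07 did not pass the test (adjusted p = 0.483). Bax, which forms pores in the mitochondrial membrane, fell, with changes of -1.47 in the tumor line, -0.40 in null BM-MSCs and -1.28 in null ASCs (SE 0.06). Apaf1, the scaffold of the apoptosome, fell by 0.41 ± 0.11 in null BM-MSCs and by 0.59 ± 0.11 in null ASCs, and its change in the tumor line was -0.11 ± 0.11 (adjusted p = 0.389). The Apaf1 call in null BM-MSCs (adjusted p = 0.0217) was lost without WT BM-MSC array 1, WT BM-MSC array 2 or null BM-MSC array 2, with an adjusted p of up to 0.114.

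**Figure D2:**
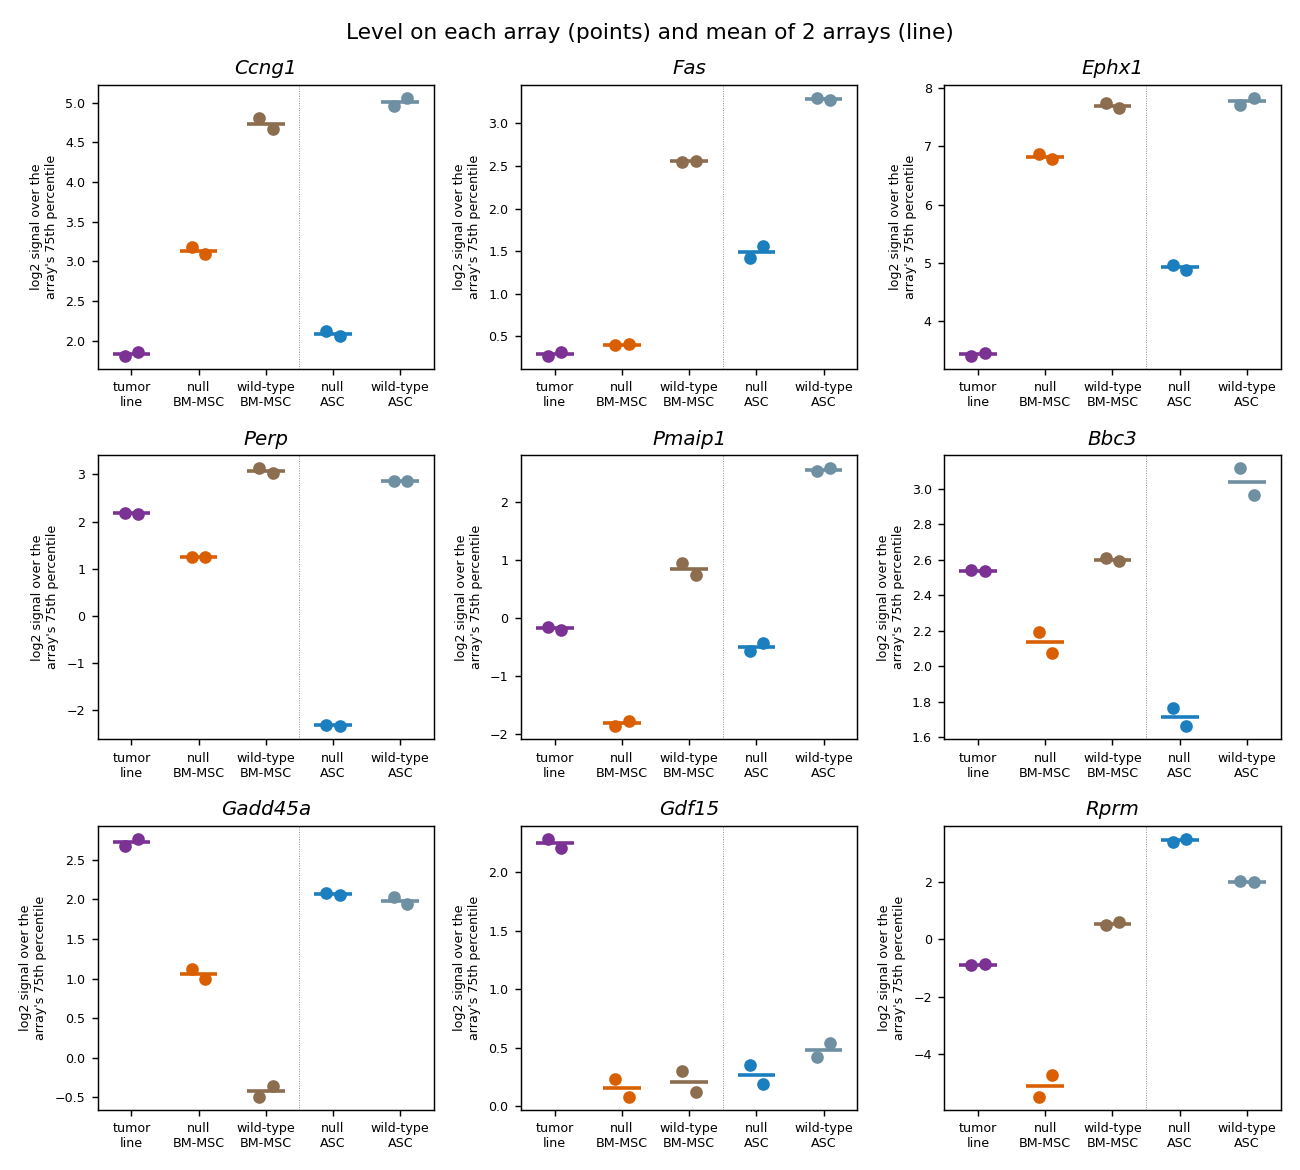
Level (log2 signal over the array's 75th percentile) of 9 p53 targets on each of the 10 arrays, with points for arrays, short lines for the mean of 2 and a dotted line between marrow and fat cells; each panel has its own vertical axis. Fas and Ccng1 were lower in every p53-deficient group than in WT cells of the same tissue, while Gadd45a and Gdf15 stood highest in the tumor line.

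Perp, a membrane protein of desmosomes that also promotes cell death, had the deepest fall of any member in fat cells. It was at -2.31 and -2.34 in null ASCs, against 2.85 and 2.86 in WT ASCs, which left 2.75% of the signal (change -5.18 ± 0.05). In marrow cells it was at 2.19 and 2.15 in the tumor line and at 1.25 and 1.26 in null BM-MSCs, against 3.13 and 3.03 in WT BM-MSCs. The tumor line, with the least Trp53 signal, thus kept more Perp than null BM-MSCs (0.92 ± 0.05 higher, adjusted p = 5.99e-06). Phlda3, which competes with the kinase Akt for membrane lipids, fell, with changes of -2.77, -0.89 and -2.42 (SE 0.06) in the tumor line, null BM-MSCs and null ASCs. The nuclease Aen, one of the promoters printed above, fell, with changes of -2.13, -0.87 and -1.82 (SE 0.05). Ei24, a protein of the endoplasmic reticulum membrane, fell, with changes of -1.51, -0.93 and -1.09 (SE 0.05). Steap3, a metalloreductase, rose by 0.52 ± 0.05 in the tumor line, with changes of -0.12 and 0.00 in null BM-MSCs and null ASCs that did not pass. In all, 9, 10 and 11 of the 12 cell death genes fell in the tumor line, null BM-MSCs and null ASCs, beside 34.8%, 20.2% and 21.2% of all genes, and 1 (Steap3 in the tumor line) rose.

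Of the 10 growth arrest genes, 5, 6 and 6 were lower in the tumor line, null BM-MSCs and null ASCs, beside the same 34.8%, 20.2% and 21.2% of all genes. In the same order 4, 2 and 1 were higher, beside 32.9%, 19.3% and 20.3% of all genes, so the shares that rose were near or below the background. Ccng1 (cyclin G1), which holds the closest match to the response element, was at 1.81 and 1.86 in the tumor line and at 3.18 and 3.09 in null BM-MSCs, against 4.81 and 4.67 in WT BM-MSCs. In fat it was at 2.12 and 2.06 in null ASCs, against 4.95 and 5.06 in WT ASCs. Its signal was 13.4% of WT in the tumor line, 33.0% in null BM-MSCs and 13.2% in null ASCs, with changes of -2.90, -1.60 and -2.92 (SE 0.07). Within marrow, the order of the groups in Ccng1 was that of Trp53. Btg2, an antiproliferative partner of the CCR4-NOT deadenylase, was at -1.50 and -1.69 in the tumor line and at -0.64 and -0.42 in null BM-MSCs, against 1.47 and 1.46 in WT BM-MSCs. It fell, with changes of -3.06, -1.99 and -2.71 (SE 0.09) in the tumor line, null BM-MSCs and null ASCs. Trp53inp1, a nuclear protein that promotes the cell death activity of p53, fell, with changes of -1.83, -1.13 and -3.11 (SE 0.06), and the zinc finger RNA-binding protein Zmat3 fell as well, with changes of -1.34, -0.52 and -2.65 (SE 0.05).

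Gadd45a, a stress protein that slows entry into mitosis, moved the other way in marrow. It was at 2.68 and 2.76 in the tumor line and at 1.12 and 1.00 in null BM-MSCs, against -0.49 and -0.35 in WT BM-MSCs. That is 8.83-fold and 2.80-fold the WT signal (changes 3.14 ± 0.07 and 1.48 ± 0.07). In fat it was at 2.08 and 2.06 in null ASCs, against 2.02 and 1.93 in WT ASCs, a change of 0.09 ± 0.07 that did not pass (adjusted p = 0.396). Gdf15, a secreted cytokine of the TGF-β superfamily, rose in the tumor line by 2.03 ± 0.10 against WT BM-MSCs. It was at 2.28 and 2.20 in the tumor line and at 0.23 and 0.08 in null BM-MSCs, against 0.30 and 0.12 in WT BM-MSCs, so null BM-MSC and WT arrays overlapped while the tumor line stood apart. The polo-like kinase Plk2 rose by 1.12 in the tumor line and 0.56 in null BM-MSCs and fell by 0.71 in null ASCs (SE 0.10). Its relative Plk3 rose by 0.89 in the tumor line and fell by 0.54 in null ASCs, with a change of 0.03 in null BM-MSCs that did not pass (SE 0.07).

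Gadd45a and Gdf15 are among the members also known as targets of the stress factor ATF4. The members were not sorted by ATF4, and some that fell may be its targets as well. Gdf15 did not pass in null BM-MSCs (-0.06) or null ASCs (-0.21), and Gadd45a did not pass in null ASCs (0.09). Of 7 genes of the ATF4 stress response, 7 rose in the tumor line, 6 rose in null BM-MSCs, and 5 rose and 2 fell in null ASCs, with median changes of 2.03, 0.93 and 0.55. Of 8 proliferation genes, 6 rose and 1 fell in the tumor line, 7 rose in null BM-MSCs and 8 rose in null ASCs. The shares of all genes that rose were 32.9%, 19.3% and 20.3%, and those that fell were 34.8%, 20.2% and 21.2%. The part of both gene groups in the levels of the p53 targets was not tested.

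Rprm (Reprimo), which arrests cells before mitosis, gave the widest swing between tissues. Its level was -0.90 and -0.86 in the tumor line and -5.48 and -4.71 in null BM-MSCs, against 0.51 and 0.60 in WT BM-MSCs. In fat it was 3.38 and 3.50 in null ASCs, against 2.02 and 1.98 in WT ASCs. It fell by 5.65 ± 0.22 in null BM-MSCs, where 1 of 2 arrays was well above background, fell by 1.43 ± 0.22 in the tumor line and rose by 1.44 ± 0.22 in null ASCs. Pml, which builds nuclear bodies, fell by 0.36 ± 0.06 in null BM-MSCs, and its changes of 0.06 in the tumor line and 0.00 in null ASCs did not pass. A second Pml probe gave -0.77, -0.45 and -0.49 in the tumor line, null BM-MSCs and null ASCs, so Pml depends on the probe.

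Of the DNA repair genes, Polk, a polymerase that copies past lesions, fell, with changes of -1.01, -1.07 and -1.75 (SE 0.09) in the tumor line, null BM-MSCs and null ASCs. Xpc, which recognises damage for nucleotide excision repair, fell, with changes of -0.25, -0.61 and -0.63 (SE 0.09). Its levels were 1.41 and 1.50 in the tumor line and 1.04 and 1.13 in null BM-MSCs, against 1.61 and 1.78 in WT BM-MSCs. The Xpc call in the tumor line (adjusted p = 0.0436) was lost without any 1 of 7 of the 10 arrays (WT BM-MSC array 2 or either array of the tumor line, null BM-MSCs or null ASCs), with an adjusted p of up to 0.209. The same call was lost with another background correction, with the authors' normalized values, without the filter on dim probes and with only the compared groups fitted. Ddb2, the partner of Xpc in recognising ultraviolet damage, rose by 0.46 ± 0.08 in null ASCs. Its changes of -0.11 in the tumor line (adjusted p = 0.26) and -0.19 in null BM-MSCs (adjusted p = 0.108) did not pass.

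Among the metabolic genes, Ephx1, the microsomal epoxide hydrolase, had the deepest fall of any member in the tumor line. It was at 3.40 and 3.45 in the tumor line and at 6.87 and 6.78 in null BM-MSCs, against 7.75 and 7.66 in WT BM-MSCs. In fat it was at 4.96 and 4.88 in null ASCs, against 7.72 and 7.84 in WT ASCs. The tumor line kept 5.16% of the WT signal, null BM-MSCs 54.5% and null ASCs 13.8%. A second Ephx1 probe gave changes of -4.42, -1.07 and -3.09 in the same groups. Dcxr, a carbonyl and xylulose reductase, fell, with changes of -2.03, -2.09 and -2.59 (SE 0.09), with levels of 1.84 and 1.81 in the tumor line and 1.81 and 1.74 in null BM-MSCs, against 3.91 and 3.81 in WT BM-MSCs. With this probe the marrow values thus sat together in both p53-deficient groups. A second Dcxr probe gave changes of -2.81, -2.45 and -2.69 in the tumor line, null BM-MSCs and null ASCs.

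The 3 sestrins, stress proteins that restrain mTORC1, each had a pattern of its own. Sesn2 fell, with changes of -0.82, -0.93 and -1.03 (SE 0.08) in the tumor line, null BM-MSCs and null ASCs. Sesn3 rose by 0.65, 0.44 and 0.46 (SE 0.06). Sesn1, whose promoter window is printed above, was at 2.32 and 2.39 in the tumor line and at 3.83 and 3.75 in null BM-MSCs, against 3.25 and 3.33 in WT BM-MSCs. It fell by 0.93 ± 0.06 in the tumor line and rose by 0.50 ± 0.06 in null BM-MSCs, while its change of 0.09 ± 0.06 in null ASCs did not pass (adjusted p = 0.257).

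The members were then set beside the Trp53 signal that remained. Null BM-MSCs kept the most Trp53 and had the smallest median fall, with a median member at 60.2% of WT, against 44.1% in null ASCs. In the tumor line, where Trp53 was not well above background, the median member stood at 49.6% of WT. These 3 groups give no basis for a correlation, and Rb1 signal was ordered the same way between null BM-MSCs and null ASCs. The median level over the 30 members was 1.83 and 1.86 in the tumor line and 1.42 and 1.45 in null BM-MSCs, against 2.28 and 2.24 in WT BM-MSCs. It was 1.35 and 1.30 in null ASCs, against 2.69 and 2.72 in WT ASCs. This median level can rest on different genes on different arrays. By it null BM-MSCs lay further below WT BM-MSCs than the tumor line did, the reverse of the order by median change.

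**Figure D3:**
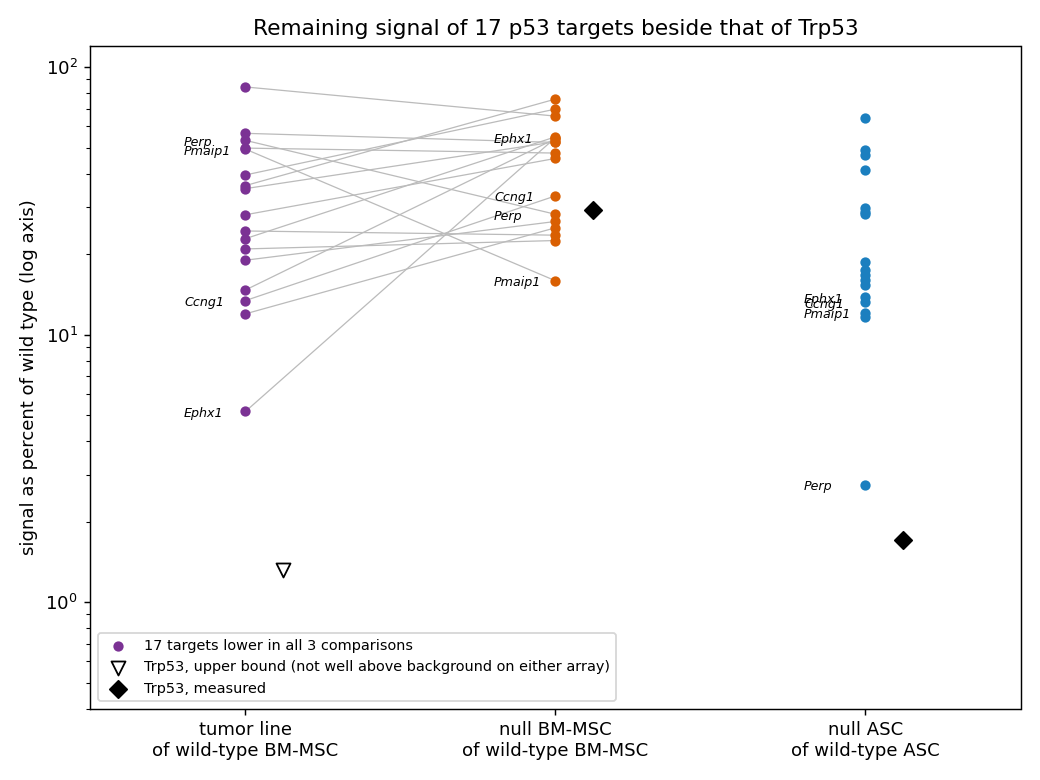
Signal of the 17 core p53 targets (circles) as percent of the WT cells of the same tissue, on a log axis, beside that of Trp53 (diamonds; the open triangle is an upper bound) in the tumor line, null BM-MSCs and null ASCs; grey lines join a gene between the marrow groups. Trp53 stands at 29.3% in null BM-MSCs and 1.71% in null ASCs, and the lines from Ephx1 and Pmaip1 cross between the tumor line and null BM-MSCs.

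The tumor line against null BM-MSCs compares a line with its parent cell type, and Trp53 was at least 22.3-fold lower in the tumor line (adjusted p = 5.96e-07). Whether the tumor arose from the null cultures on these arrays was not determined. The members did not fall as a group: 11 were lower and 13 higher in the tumor line, beside 35% and 34.6% of all genes (69.5% in either direction). Their median change was 0.07, and -0.05 over all genes. Of the 17 core members, 9 were lower, 3 (Perp, Pmaip1 and Xpc) were higher and 5 (Dcxr, Eda2r, Fas, Polk and Sesn2) did not pass. The core was picked by its falls on these same tumor line and null BM-MSC arrays. That choice shapes this split, which is given as a description only. The 9 changes ran from -0.58 ± 0.05 for Ei24 to -3.40 ± 0.07 for Ephx1, with -1.88 ± 0.06 for Phlda3, -1.30 ± 0.07 for Ccng1, -1.26 ± 0.05 for Aen and -1.07 ± 0.06 for Bax. Fas differed by -0.10 ± 0.06 (adjusted p = 0.153) and Dcxr by 0.05 ± 0.09 (adjusted p = 0.622), which does not show that they were equal. The second Dcxr probe read lower in the tumor line than in null BM-MSCs. Outside the core, Rprm was 4.21 ± 0.22, Gdf15 2.09 ± 0.10 and Gadd45a 1.66 ± 0.07 higher in the tumor line, and Sesn1 (-1.43 ± 0.06) and Tnfrsf10b (-1.06 ± 0.04) were lower. Single arrays decided 4 members: the rises of Apaf1, Sesn3 and Xpc were lost without at least 1 array (adjusted p of up to 0.188, 0.104 and 0.0553), and Eda2r passed at -0.82 without tumor line array 2. For Apaf1 these were either WT array of either tissue, null BM-MSC array 2 and tumor line array 2. For Sesn3 they were any null BM-MSC or tumor line array, and for Xpc null BM-MSC array 1 and tumor line array 2.

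The change from WT to null cells differed in size between marrow and fat cells. Of 30 members, 22 had a change in BM-MSCs that differed from the change in ASCs by the interaction term. In 18 the difference (BM-MSC change minus ASC change) was above 0 and in 4 below 0, beside 15.3% and 16.6% of all genes (31.8% in either direction). Of the 19 members that fell in both tissues (9.62% of all genes did so), 18 had the larger fall in ASCs by their point value. The interaction passed in that direction for 13 and in the other for 1, Fas, while 5 did not pass. The same split was not counted over all genes that fell in both tissues. Whether it is particular to the p53 targets is therefore not known. The widest gaps in the 13 were for Perp (3.36 ± 0.07), Zmat3 (2.13 ± 0.07), Ephx1 (1.98 ± 0.10) and Trp53inp1 (1.97 ± 0.09). Trp53 itself had an interaction of 4.10 ± 0.28 and Rb1 of 1.93 ± 0.07, both in the same direction. Xpc (0.02 ± 0.12) and Sesn2 (0.10 ± 0.12) had the smallest differences among the 5 that did not pass. The interaction calls of Pmaip1 (0.40 ± 0.12, adjusted p = 0.0498), Dcxr (0.50 ± 0.13), Fas (-0.36 ± 0.08) and Pml (-0.36 ± 0.08) were lost without single arrays, with adjusted p of up to 0.142, 0.0836, 0.0624 and 0.0675. For Pmaip1 9 of the 10 arrays did this, for Dcxr both WT ASC arrays, WT BM-MSC array 2 and both null BM-MSC arrays. For Fas these were WT ASC array 2 and every BM-MSC array, null or WT. For Pml they were WT ASC array 2, WT BM-MSC array 1, null ASC array 1 and null BM-MSC array 1. The Pml call was also lost with the mean of its probes. Eda2r, at 0.61 ± 0.31 (adjusted p = 0.197), passed without either tumor line array.

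**Figure D4:**
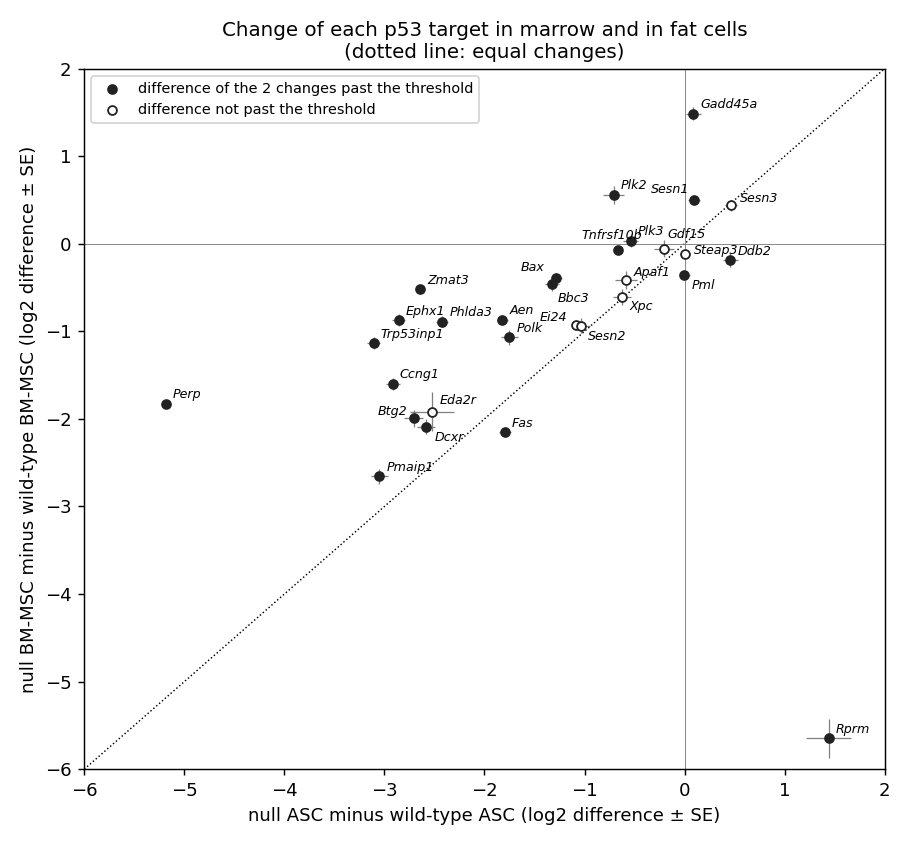
Change of each of 30 p53 targets in null BM-MSCs (vertical axis) against its change in null ASCs (horizontal axis), both against WT cells and on the log2 scale, with SEs as bars and a dotted line of equal changes; filled points had an interaction past the threshold. Most points lie above the line in the lower left, where the fall was larger in ASCs, with Perp farthest left and Rprm alone at the bottom right.

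The WT cells of the 2 tissues did not start from the same levels. WT BM-MSCs were lower than WT ASCs in 17 members and higher in 8, beside 28.4% and 25.7% of all genes (54% in either direction). Of the 17 core members, 11 were lower in WT BM-MSCs, 3 (Perp, Phlda3 and Polk) were higher and 3 did not pass. The core was picked partly by these same WT arrays, so this split too is a description only. The difference (WT BM-MSC minus WT ASC) was -1.72 ± 0.09 for Pmaip1, -1.66 ± 0.09 for Btg2, -1.04 ± 0.05 for Aen, -0.91 ± 0.05 for Zmat3 and, for Trp53, -0.30 ± 0.20 (adjusted p = 0.254). Between the null groups, null BM-MSCs were higher than null ASCs in 15 members and lower in 12, beside 26% and 29.4% of all genes (55.4% in either direction). Perp was higher in null BM-MSCs by 3.58 ± 0.05, Sesn1 by 2.04 ± 0.06, Ephx1 by 1.91 ± 0.07 and Phlda3 by 1.82 ± 0.06. Pmaip1 (-1.32 ± 0.09) and Fas (-1.09 ± 0.06) were lower in null BM-MSCs, although null ASCs had the lower Trp53 signal. Aen did not differ past the threshold there (-0.09 ± 0.05).

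Cdkn1a and Mdm2, the best known targets outside the list, moved like the core. Cdkn1a, the p21 inhibitor of cyclin-dependent kinases, fell, with changes of -3.14 in the tumor line, -1.35 in null BM-MSCs and -3.97 in null ASCs (SE 0.08). Mdm2 fell, with changes of -1.39, -0.96 and -2.07 (SE 0.05). Of 18 further p53 targets in a second list, which includes Cdkn1a, 16 were tested. In the tumor line 9 fell and 6 rose, in null BM-MSCs 10 fell and 2 rose, and in null ASCs 11 fell and 4 rose, with median changes of -0.67, -0.38 and -0.99. Of all genes 34.8%, 20.2% and 21.2% fell and 32.9%, 19.3% and 20.3% rose. The shares of this list that rose were thus near or below the background in all 3 comparisons. Ptprv, a receptor-type phosphatase, fell, with changes of -5.00, -0.38 and -3.13 (SE 0.10), and the thiamine transporter Slc19a2 fell, with changes of -1.85, -1.83 and -2.01 (SE 0.09). Trp53i11 rose by 2.71 in the tumor line and fell in null BM-MSCs (-1.38) and null ASCs (-1.97), each with an SE of 0.05. Among 7 tested regulators of p53, 3, 2 and 3 fell and 2, 1 and 0 rose in the same 3 comparisons. In the tumor line, null BM-MSCs and null ASCs the count in either direction was near the 67.8%, 39.5% and 41.5% of all genes. The regulator with the largest change in both marrow comparisons was Cdkn2a, which encodes inhibitors of Mdm2 and of cyclin-dependent kinases. It was at 6.94 and 6.77 in the tumor line and at -2.26 and -1.82 in null BM-MSCs, against 3.17 and 3.08 in WT BM-MSCs. In fat it was at 5.10 and 5.11 in null ASCs, against 4.79 and 4.59 in WT ASCs, a change of 0.42 ± 0.15 that did not pass (adjusted p = 0.0679).

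Markers of other cells were read beside these changes. All 7 mesenchymal stromal markers were well above background on every array, but their levels moved. In the tumor line 2 rose and 4 fell against WT BM-MSCs, with Nt5e (CD73) at 2.39 against -2.32 and Eng (CD105) at -2.12 against 2.98 (means of 2). In null BM-MSCs 2 rose and 2 fell, and in null ASCs 1 rose and 3 fell. In the same order of groups, 32.9%, 19.3% and 20.3% of all genes rose and 34.8%, 20.2% and 21.2% fell. With 7 markers, these counts are not read as a result about the markers. Of 5 macrophage and myeloid markers on the array, 3 to 5 were well above background, and their signal summed over probes, in units of the array's 75th percentile, was 9.37 to 10.6 in the tumor line and 20.7 to 21.9 in null BM-MSCs, against 26.5 to 26.8 in WT BM-MSCs. In fat it was 13.7 to 14.9 in null ASCs, against 25.1 to 29.8 in WT ASCs. That sum was lower in each p53-deficient group, and most of it came from 1 gene, Itgam (CD11b), at 2.80 in the tumor line and 4.23 in null BM-MSCs, against 4.54 in WT BM-MSCs. Not all 5 markers moved that way: in the tumor line 2 fell and 2 rose against WT BM-MSCs, while 3 fell and 0 rose in each null group. The risers were Lyz2 (-1.73 against -3.90) and Cd68 (0.60 against -0.20). The shares of all genes given above apply to these counts as well. The defining marker Ptprc (CD45) lay between -4.98 and -5.71 on all arrays. The 4 epithelial markers summed to 0.809 to 0.941 in null BM-MSCs, against 0.117 to 0.213 on the arrays of the other groups. Krt14 carried most of that sum, at -0.66 in null BM-MSCs against -2.89 in WT BM-MSCs (means of 2). Cdh1, at -2.45 in null BM-MSCs, was not well above background in any other group. Krt5 did not follow, at -4.35 in null BM-MSCs against -4.22 in WT BM-MSCs, and Epcam was not well above background anywhere. Of 4 endothelial markers 2 were well above background on every array and Cdh5 and Tek on none, and of 5 lymphoid and erythroid markers 1 to 2. The part of other cells in these results was not tested.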

How the data were processed

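Deposited scanner files give the intensity of each spot in 1 colour. Per the file headers, the authors used Feature Extraction, version 10.7.3.1, which removed spatial trends, put surrogate values in place of dim signals and flagged spots. Flags for background, saturation and outliers are other deposited columns, used as given. Normalized log2 values of the authors are in the deposited series matrix, with array medians of 5.04 to 5.06, and served as an alternative. How they were normalized is not stated in those sources, and the submitters' processing notes name limma with no role.

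After outlier spots were dropped, log2 signals were averaged per probe and scaled to each array's 75th percentile taken over all spots. Each gene was read from its brightest probe. A gene was tested if its probe was well above background on both duplicates of 1 group or more, which left 22622 genes. One limma model (version 3.58.1, R 4.3.3, lmFit and eBayes) held a mean per group and gave 7 contrasts. Its degrees of freedom were 5 (residual) and 1.35 (prior). p-values were adjusted by Benjamini-Hochberg over all genes, with a threshold of 0.05. The procedure was tested on simulated data. Precision is limited by the 2 arrays in a group.

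The members and lists were chosen with earlier results of these data known. The text names every member, Trp53, Rb1, Cdkn1a and Mdm2, and from the other target and regulator lists genes among the 3 largest and 3 smallest changes. Lists were described by counts, with no test of a list. Promoters came from RefSeq (GRCm38.p6). Probe coordinates in the files refer to mm9 and were not mixed with them. Same-numbered arrays of different groups did not deviate together (r = -0.122 to 0.116), so the numbers were not taken as pairs. Duplicates correlated at r = 0.994 to 0.996 over genes. Alternatives were background correction, normalization, the series matrix, filters, probes per gene, gene names, the spread, the arrays fitted and each array left out.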

Additional observations from a re-analysis of the deposited data

Results flagged for a closer look

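The change from WT to null cells differed between marrow and fat cells, by the interaction term of the limma fit, for 22 of the 30 tested p53 targets. Values are the change in null BM-MSCs minus the change in null ASCs on the log2 scale, so a value above 0 is a deeper fall in ASCs or a rise in BM-MSCs.

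Of genes that fell in both tissues, the value was 1.32 for Ccng1, 0.86 for Bbc3, 0.40 for Pmaip1, 0.89 for Bax, 1.97 for Trp53inp1, 1.54 for Phlda3, 2.13 for Zmat3, 3.36 for Perp, 0.96 for Aen, 0.71 for Btg2, 0.69 for Polk, 1.98 for Ephx1 and 0.50 for Dcxr. It was -0.36 for Fas, whose fall was larger in marrow. The 4 values closest to the threshold were those of Pmaip1 (adjusted p = 0.0498), Dcxr (0.0258), Pml (0.0187) and Fas (0.0186).

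Of genes that did not fall in both, Gadd45a stood at 1.40, Sesn1 at 0.40, Plk2 at 1.27, Plk3 at 0.57 and Tnfrsf10b at 0.59. Ddb2 stood at -0.65 and Pml at -0.36. The Pml value is that of its brightest probe, and its call was lost with the mean of its probes. Plk2 rose in null BM-MSCs and fell in null ASCs. Rprm, at -7.08, fell in null BM-MSCs and rose in null ASCs, and its probe was well above background on 1 of 2 null BM-MSC arrays.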

How the results depend on the processing

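Counts of members past the threshold stayed within 1.5 times the reported count under every alternative run. With 31 members at most, a count 1.5 times as high was not possible, so only the lower side could fail. Leaving out 1 array gave 25 to 26 members in the tumor line against WT BM-MSCs (reported 26), 24 to 25 in null BM-MSCs against WT (25), 25 in null ASCs against WT (25), 18 to 22 for the interaction (22), 22 to 24 in the tumor line against null BM-MSCs (24), 24 to 27 between null BM-MSCs and null ASCs (27) and 23 to 26 between the WT groups (25). The other alternatives gave 24 to 27, 23 to 26, 23 to 26, 18 to 23, 22 to 25, 25 to 27 and 21 to 28 in that order, the lowest for the interaction without a filter on dim probes, and a replicate block gave 26, 25, 25, 21, 24, 27 and 26. The replicate block changed the call of 2 single values.

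Of 4186 single values (30 members, 7 comparisons), 4073 kept their side of the threshold, 89 lost it, 23 gained it and 1 turned and passed. Values that changed sign while missing the threshold both times are among the 4073 and were not counted apart. The 1 that turned was Pml in the tumor line against WT BM-MSCs. It was 0.06 with the brightest probe and -0.36 with the mean of its probes, since its second probe read lower. Rprm in null BM-MSCs and Eda2r in the tumor line rest on signals near background, which limits their precision.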
